A study of Mus musculus with 12 samples.

Results

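The regions described here are the 1316 autosomal stretches of chromatin that were less accessible in Phf6 knockout (KO) than in wild-type (WT) libraries of both blood cell populations studied. They were chosen from a union table of 188262 regions by their measured values. A region was eligible if it lay on an autosome and its mean over all 12 libraries was 1 CPM (counts scaled to the total of the library) or more, which left 125457 regions. It was kept if, in each population, the log2 ratio of mean CPM in KO over WT was -0.5 or less and the highest KO library lay below the lowest WT library. The KO over WT values of these regions are therefore a description of the choice, and no test of that contrast is given for them.

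ATAC-seq uses Tn5 transposase to cut and tag DNA that nucleosomes leave free, and was applied to 4 groups of 3 libraries. Long-term haematopoietic stem cells (LT-HSC) renew themselves and sustain all blood lineages, and multipotent progenitors (MPP) are their early descendants with little self-renewal. WT libraries came from Phf6f/Y Rosa26+/+ mice, which carry an undeleted floxed allele on their only X chromosome and no Cre. KO libraries came from Phf6−/Y Rosa26+/Cre-ERT2 mice, in which tamoxifen activates Cre made from the Rosa26 locus in all tissues that express it. Every mouse is male by these genotypes, and because all KO and none of the WT mice carried Cre-ERT2, its effect and that of Phf6 loss cannot be told apart. For LT-HSC the labels give 20000 sorted cells from individual mice of both genotypes 8 weeks after tamoxifen. The sources used here do not say how MPP were prepared or whether libraries with the same number share a mouse. Where nothing names separate animals, p-values measure the spread between libraries, which may be technical.

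PHF6 is a nuclear protein with plant homeodomain-like zinc fingers that is found at chromatin and in nucleoli. Its gene is X-linked and is a recurrent target of loss-of-function mutations in T cell acute lymphoblastic leukaemia and myeloid neoplasms, and in mice its loss is known to enhance the self-renewal of haematopoietic stem cells. Open regions away from gene starts are mostly enhancers or other regulatory elements, and open regions at gene starts mark promoters. An ATAC-seq count falls when fewer cells have a region open or when it is less open in each cell, and in these bulk libraries the alternatives cannot be told apart.

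Some lost regions lay at listed gene starts. RefSeq promoter windows, 250 bases before to 50 after a listed start, were overlapped by at least 150 bases by 41 of the 1316 regions, which touched 46 windows of 42 genes. Windows are listed for 17492 of 21900 protein-coding genes. The 250 bases before the start of 5 of these genes are shown because they are the start sites of genes with a symbol that carry high counts or a gene with several lost regions. They are written 5′ to 3′ on the strand of the gene (build GRCm38.p6, RefSeq), and capitals mark matches to the motifs searched.
Kcnh1 (chr1:192190527-192190776, plus strand): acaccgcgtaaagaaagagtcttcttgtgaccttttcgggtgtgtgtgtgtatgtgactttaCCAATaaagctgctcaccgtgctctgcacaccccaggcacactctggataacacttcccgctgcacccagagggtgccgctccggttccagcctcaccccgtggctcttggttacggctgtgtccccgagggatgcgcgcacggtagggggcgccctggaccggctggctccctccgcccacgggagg
Gpr83 (chr9:14859960-14860209, plus strand): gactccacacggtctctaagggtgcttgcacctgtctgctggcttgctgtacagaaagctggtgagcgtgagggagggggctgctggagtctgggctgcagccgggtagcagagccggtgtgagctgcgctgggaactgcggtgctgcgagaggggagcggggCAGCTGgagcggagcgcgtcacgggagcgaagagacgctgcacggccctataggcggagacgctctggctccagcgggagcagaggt
Cntnap2 (chr6:47244146-47244395, plus strand): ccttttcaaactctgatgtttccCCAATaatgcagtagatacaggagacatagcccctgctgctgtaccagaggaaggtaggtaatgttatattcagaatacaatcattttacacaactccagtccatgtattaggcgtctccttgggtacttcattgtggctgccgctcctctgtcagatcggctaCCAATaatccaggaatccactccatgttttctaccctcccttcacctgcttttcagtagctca
Gxylt2 (chr6:100704484-100704733, plus strand): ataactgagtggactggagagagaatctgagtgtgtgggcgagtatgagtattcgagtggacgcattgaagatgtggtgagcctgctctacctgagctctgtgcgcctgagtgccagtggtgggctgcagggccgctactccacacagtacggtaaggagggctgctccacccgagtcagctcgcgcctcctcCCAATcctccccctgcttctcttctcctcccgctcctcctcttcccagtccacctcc
Adcy2 (chr13:68999542-68999791, minus strand): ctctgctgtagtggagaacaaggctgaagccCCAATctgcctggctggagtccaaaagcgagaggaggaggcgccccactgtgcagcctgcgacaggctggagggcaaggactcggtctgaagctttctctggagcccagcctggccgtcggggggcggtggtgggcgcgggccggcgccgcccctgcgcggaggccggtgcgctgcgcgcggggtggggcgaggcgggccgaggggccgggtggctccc

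In all 9 motifs were searched in these windows. The CCAAT box (CCAAT) was in 15 of the 46 windows (32.6%) against 37.5% of the 13837 windows overlapped by eligible regions and 37.4% of all 32851 windows. The GC box (GGGGCGGGG) was in 12 windows (26.1%), against 21.6% and 11.4%. The E-box (CAGCTG) was in 6 windows (13.0%), against 15.7% and 16.3%. The PU.1 letters (GAGGAAGT) and the RUNX letters (TGTGGTTT) were in 3 windows each (6.52%), against 3.78% and 1.41% of windows at eligible regions. Of the RUNX windows, 2 overlap at 1 lost region (chr15:60141576-60141875 and chr15:60141661-60141960) and share the same match, which is counted in both. The AP-1 letters (TGANTCA) were in 2 windows (4.35%) and the GATA letters (AGATAA) in 1 (2.17%), against 5.32% and 6.03% at eligible regions. The ETS letters (ACCGGAAGT), of which GGAAGT is shared with the PU.1 letters, and the IRF motif were in 0 windows. At eligible regions they were in 2.1% and 3.09% of windows. All motifs were searched on both strands, and a match describes letters, not a bound site. The windows at lost regions had a median GC content of 57.3% and 14 CpG, against 61.3% and 21 at eligible regions. In 6 of the 46 windows (13.0%, at 5 lost regions) a stretch of 75 bases had a copy in another window, against 1.87% of windows at eligible regions. Reads of such copies can be placed on more than 1 gene, so those 5 regions are uncertain in position.

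Among lost regions at listed starts of genes other than predicted models, those of a potassium channel and a receptor had the highest WT counts. Predicted models had higher ones, as at chr12:20614716-20615227, with 17.5, 18.7 and 21.7 CPM in WT LT-HSC and 15.2, 12.5 and 11.3 CPM in KO LT-HSC. At the start of Kcnh1, a voltage-gated potassium channel (chr1:192190497-192190913), WT LT-HSC had 8.49, 10.2 and 9.95 CPM and KO LT-HSC 6.81, 5.63 and 6.26 CPM. In MPP the WT libraries had 7.73, 8.47 and 9.5 CPM and the KO libraries 6.74, 5.77 and 5.48 CPM. All 6 KO libraries lay below all 6 WT libraries, and the log2 fold change of MPP over LT-HSC was -0.10 (SE 0.08, edgeR adjusted p = 0.262), which missed the threshold of 0.05. At Gpr83, an orphan-type G protein-coupled receptor (chr9:14859919-14860411), WT LT-HSC had 9.37, 12.2 and 10.4 CPM and KO LT-HSC 8.19, 7.49 and 6.66 CPM. WT MPP had 5.16, 6.06 and 5.82 CPM and KO MPP 3.03, 3.36 and 2.79 CPM. This promoter was lower in MPP than in LT-HSC (log2 fold change -1.08, SE 0.09, edgeR adjusted p = 4.05e-13), so the KO LT-HSC libraries still lay above the WT MPP libraries.

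Lost regions at promoters of other genes with roles outside blood had lower counts, with KO below WT as the rule demands. At Cntnap2, a neurexin-family adhesion protein, the region at an internal start had 7.29, 6.83 and 7.34 CPM in WT LT-HSC, 6.08, 4.34 and 4.24 CPM in KO LT-HSC, 4.30, 4.04 and 4.89 CPM in WT MPP and 3.14, 2.29 and 2.93 CPM in KO MPP. A second lost region of Cntnap2 lay within 1 kb of its gene end at chr6:45059064-45059520. At Ryr2, the calcium release channel of heart and brain, the start had 4.41, 4.30 and 4.29 CPM in WT LT-HSC and 2.35, 1.96 and 2.69 CPM in KO LT-HSC, with 1.36 to 1.63 CPM in WT MPP and 0.852 to 0.901 CPM in KO MPP. At Igfbp2, which binds insulin-like growth factors, the region at the start had 3.97, 4.79 and 4.14 CPM in WT LT-HSC and 3.35, 2.87 and 2.16 CPM in KO LT-HSC. At Gxylt2, a xylosyltransferase that acts on sugars attached to Notch, the start region had 6.05, 6.77 and 6.54 CPM in WT LT-HSC and 4.94, 4.51 and 3.04 CPM in KO LT-HSC. Gxylt2 held 2 further lost regions inside the gene, and all 3 were lower in MPP.

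Other gene ends among the strongest lost regions belonged to F10, Cntn3 and Tcte2. The region 0.413 kb from F10, the gene of coagulation factor X (chr8:13036239-13036895), had 5.64, 6.71 and 6.03 CPM in WT LT-HSC, 3.40, 3.29 and 3.93 CPM in KO LT-HSC, 9.81, 13.1 and 7.70 CPM in WT MPP and 7.54, 5.94 and 5.85 CPM in KO MPP. The region at an end of Cntn3, a contactin of neurons (chr6:102564242-102564744), had 10.1, 11.3 and 10.7 CPM in WT LT-HSC and 8.00, 8.12 and 6.57 CPM in KO LT-HSC. It was lower in MPP (log2 fold change -1.88, SE 0.09, edgeR adjusted p = 6.45e-19), with 3.35, 3.01 and 3.33 CPM in WT and 1.48, 2.07 and 1.81 CPM in KO. Near Tcte2, a gene of the t-complex, the order of the populations was turned, with 17.5, 21.1 and 17.5 CPM in WT MPP, 11.8, 11 and 8.78 CPM in KO MPP, 4.38, 4.59 and 4.95 CPM in WT LT-HSC and 2.89, 2.41 and 2.91 CPM in KO LT-HSC. The start of Mogat1, a monoacylglycerol acyltransferase gene, lay 0.699 kb from a lost region with 5.20, 5.42 and 5.04 CPM in WT LT-HSC and 3.38, 2.90 and 2.78 CPM in KO LT-HSC.

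By position, 91 of the 1316 regions (6.91%) lay within 1 kb of a gene end or listed start, against 19.3% of eligible regions. Another 585 (44.5%, against 43.9%) lay in a gene body and 640 (48.6%, against 36.8%) between genes. The median distance to the nearest end of a protein-coding gene was 30.1 kb, against 13.3 kb over eligible regions, and 176 regions (13.4%, against 6.27%) had no gene within 100 kb. The lost regions were also weak: their median over the 6 WT libraries was 2.16 CPM, against 3.27 CPM, and 1094 (83.1%, against 57.4%) were under 4 CPM. By the mean over all 12 libraries, the share at listed starts alone was 3.65% of lost regions against 3.6% of eligible ones at 1 to 2 CPM, 6.01% against 6.89% at 2 to 4 CPM and 5.8% against 23.3% at 4 CPM or more. Among regions of 4 CPM or more by that mean the share at gene ends or starts was 7.97% of 138 lost regions against 32.2% of eligible regions, and the intergenic share 53.6% against 31.4%. At 1 to 2 CPM the share at gene ends or starts was 5.66% of 795 against 7.63%. The gap at listed starts was thus at strong regions, and all these shares are given with no test. Lost regions had a median length of 459 bp (402 to 2179 bp), against 462 bp.

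The rule cut the ratios of both populations at the same threshold, so their like size is part of the choice. Of the eligible regions, 5037 (4.01%) met the rule in LT-HSC and 5309 (4.23%) in MPP, and the 1316 that met it in both (1.05%) were 26.1% of the former and 24.8% of the latter. The mirrored rule for gains in both populations was met by 563 of the 125457 eligible regions. With TMM-scaled CPM the rule for losses was met by 882 regions, and gains were not counted under that scaling. Without KO number 1 in both populations the rule for losses was met by 2029 regions. The median log2 ratio of KO over WT was -0.687 in LT-HSC (lowest -1.96), which leaves 62.1% of the WT level, and -0.681 in MPP (lowest -1.60), which leaves 62.4%. Over all eligible regions the medians were -0.023 and -0.0166. The log2 ratio was -1 or less at 170 regions in LT-HSC, 164 in MPP and 50 in both. Across the 1316 regions the ratios of the populations had a Pearson r of 0.296, a value that describes a set cut at the same threshold in each, and they lay within 0.5 of each other at 1237 regions (94.0%).

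**Figure D1:**
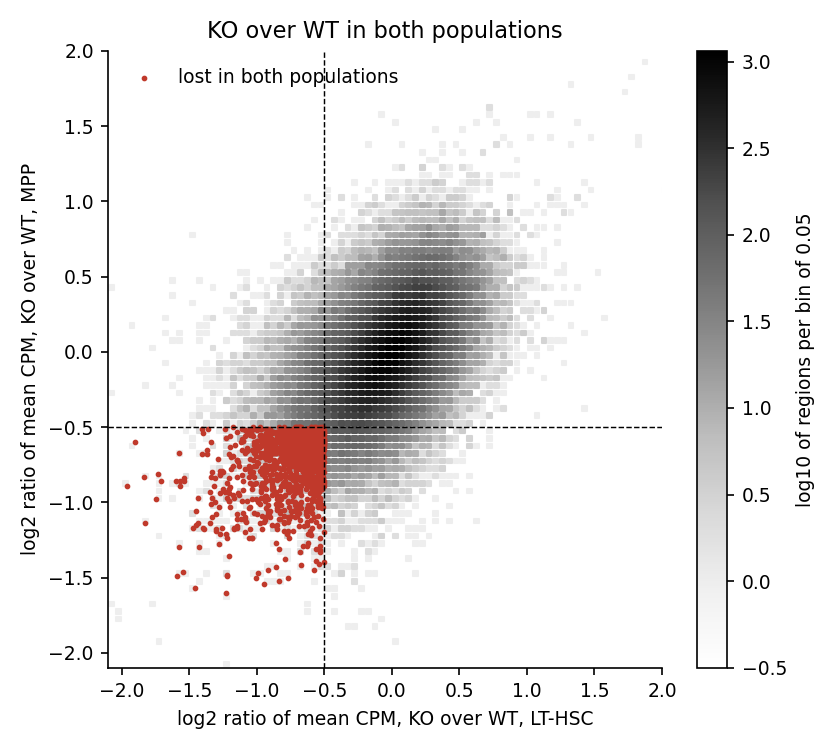
Log2 ratio of mean CPM in KO over WT in LT-HSC (horizontal axis) and in MPP (vertical axis). Grey squares give the number of eligible regions per bin of 0.05 on a log10 scale, red points are the 1316 lost regions and dashed lines the threshold of -0.5. Grey squares count the lost regions too. Eligible regions inside the lower left field that are not lost had overlapping KO and WT libraries in either population. The red points thin out towards -1.96 in LT-HSC and -1.60 in MPP.

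At the edge of the rule the regions kept and left out looked alike. The last region kept at the MPP threshold, 15.5 kb from Gtpbp4, a ribosome assembly GTPase, had 15.7, 13.8 and 12.9 CPM in WT MPP and 10.1, 7.67 and 12.3 CPM in KO MPP. The first left out, in Nktr, a cyclophilin-related protein, had 9.43, 10.5 and 11.5 CPM in WT MPP and 7.65, 7.76 and 6.84 CPM in KO MPP. The other neighbours of the threshold were regions at Lsg1 and chr11:64752325-64752771 inside, and at Kcnk1 and chr16:12956325-12957082 outside.

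Sorcs2, which encodes a sorting receptor of the VPS10 family known mainly from neurons, held more lost regions than any other gene. Of its 42 eligible regions 18 (42.9%) were lost, and 35 had both ratios below 0. With neighbours within 100 kb they formed a chain of 19 lost regions of 45 eligible ones over 417 kb (chr5:35839262-36255806), and 3 more lay beyond the other end of the gene. Summed over the 19 regions, WT LT-HSC had 123, 128 and 130 CPM and KO LT-HSC 64.3, 56.6 and 63.8 CPM. WT MPP had 65.5, 60.6 and 67.4 CPM and KO MPP 37.2, 31.4 and 30.2 CPM. The chain was thus more open in LT-HSC in both genotypes, and 17 of its 19 regions were lower in MPP by edgeR and 1 was higher. The strongest region (chr5:36089175-36089661, in the gene body) had 40.6, 40.4 and 40.1 CPM in WT LT-HSC, 16.7, 15.9 and 14.9 CPM in KO LT-HSC, 23.8, 22.3 and 23.9 CPM in WT MPP and 12.5, 10.2 and 9.07 CPM in KO MPP. The lowest ratio in LT-HSC of all 1316 regions was also in Sorcs2 (chr5:36113695-36114140), where WT LT-HSC had 9.20, 9.35 and 8.39 CPM and KO LT-HSC 2.59, 1.68 and 2.65 CPM. In MPP that region was nearly closed, with 0.936 to 1.28 CPM in WT and 0.535 to 0.682 CPM in KO.

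**Figure D2:**
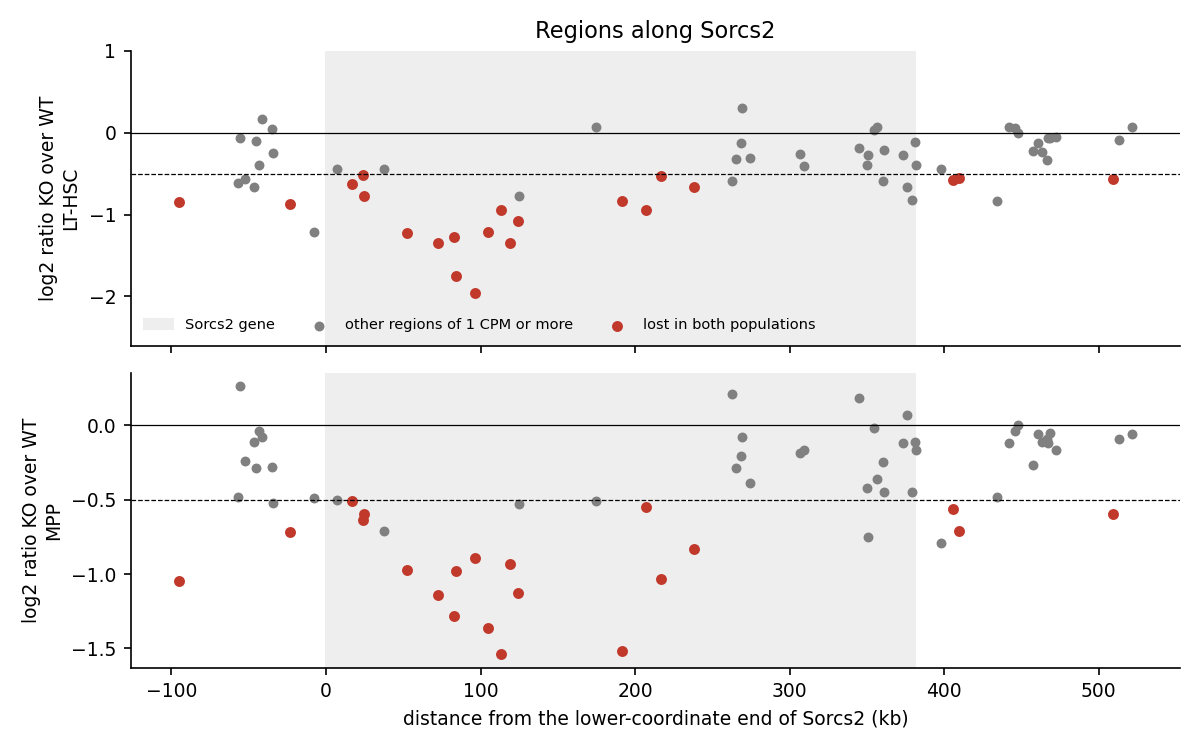
Log2 ratio of mean CPM in KO over WT in LT-HSC (upper panel) and MPP (lower panel) at regions along Sorcs2, by distance from the lower-coordinate end of the gene, which spans 381 kb (grey field). Red points are lost regions, grey points other regions of 1 CPM or more and dashed lines the threshold; the lost regions gather in the lower-coordinate part of the gene, down to -1.96 in LT-HSC.

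Adcy2, an adenylyl cyclase that makes cyclic AMP, had 7 eligible regions, all with both ratios below 0, and 4 were lost. Its strongest region lay in the gene body (chr13:68928452-68928886). It had 17.0, 17.6 and 17.7 CPM in WT LT-HSC, 8.62, 8.92 and 7.10 CPM in KO LT-HSC, 17.0, 16.2 and 19.2 CPM in WT MPP and 9.77, 6.64 and 8.01 CPM in KO MPP. KO means were 8.22 ± 0.975 CPM in LT-HSC and 8.14 ± 1.57 CPM in MPP (SD, n = 3), and the log2 fold change of MPP over LT-HSC was -0.00 (SE 0.07, edgeR adjusted p = 0.996). The promoter region shown above (chr13:68999474-68999970) had 3.29, 4.16 and 3.54 CPM in WT LT-HSC and 2.84, 2.62 and 1.81 CPM in KO LT-HSC, where the loss was smaller (log2 ratio -0.60) than in MPP (-1.22), with 3.83, 3.30 and 4.40 CPM in WT and 1.97, 1.56 and 1.44 CPM in KO. That difference between the populations was not tested, because the rule used both ratios.

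Slc16a14, a member of the monocarboxylate transporter family, held 4 lost regions, and all 4 were higher in MPP. The strongest (chr1:84914995-84915444, gene body) had 3.17, 3.47 and 3.00 CPM in WT LT-HSC and 1.78, 1.92 and 1.94 CPM in KO LT-HSC. In MPP it had 8.11, 9.35 and 7.80 CPM in WT and 4.17, 3.31 and 3.62 CPM in KO, so KO MPP stayed close to WT LT-HSC. Frmd4a, a scaffold protein of cell polarity, had a chain of 3 regions 94.5 kb or more outside the gene, all lost and all higher in MPP. Summed, they had 3.70, 4.82 and 3.51 CPM in WT LT-HSC, 2.08, 1.61 and 2.34 CPM in KO LT-HSC, 18.2, 20.8 and 17.9 CPM in WT MPP and 8.86, 9.01 and 12.2 CPM in KO MPP.

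Counted with the chains above, 377 of the 1316 regions (28.6%) lay within 100 kb of another, in 32 chains of 3 or more (127 regions) and 125 pairs. The share that the spacing of eligible regions alone would give was not computed. The 1140 regions with a gene within 100 kb fell to 972 genes, of which 850 had a single region, 99 had 2 and 23 had 3 or more. Genes with several included Gli2 (4 of 26 eligible) and Gli3 (3 of 12), the transcription factors of Hedgehog signalling, the growth factor gene Bmp7 (3 of 22), the kinase gene Fyn (3 of 41), the channel-binding protein gene Kcnip1 (4 of 27) and the sorting nexin gene Snx29 (4 of 62). Within Gli2 and within Fyn the lost regions differed in which population was higher. At Gli2 the region 93.9 kb from a gene end had 4.08, 4.56 and 2.73 CPM in WT LT-HSC and 0.936 to 1.35 CPM in WT MPP, while another, 18.6 kb outside the gene, was slightly higher in MPP (3.70, 3.91 and 4.51 CPM in WT MPP against 2.91, 3.44 and 3.24 CPM in WT LT-HSC). At Fyn the region chr10:39280343-39280781 had 16.3, 18.2 and 15.5 CPM in WT MPP and 12.4, 11.3 and 10.6 CPM in KO MPP, while WT LT-HSC had 1.44, 1.38 and 2.16 CPM and KO LT-HSC 0.865, 0.665 and 0.353 CPM. At another lost region of Fyn (chr10:39291115-39291565) WT LT-HSC had 2.73, 2.84 and 2.37 CPM and WT MPP 0.951, 1.07 and 0.901 CPM. By chromosome the share of eligible regions that were lost ran from 0.649% on chromosome 19 to 1.52% on chromosome 5, which carries Sorcs2. Within 10 Mb of Rosa26, where the KO mice carry Cre-ERT2 (chr6:113067428-113077244), 9 of 1072 eligible regions were lost (0.84%). The share was 1.1% over chromosome 6 and 1.05% over all eligible regions, and no difference was tested.

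Several loci belong to gene families with near-identical copies, and their values are uncertain because reads can be split between copies. Sfi1, a centrin-binding protein of the centrosome, held 6 lost regions of 32 eligible ones. The strongest (chr11:3132758-3133161) had 10.8, 8.98 and 8.12 CPM in WT LT-HSC and 4.67, 4.90 and 6.62 CPM in KO LT-HSC, and 18.6, 16 and 15.1 CPM in WT MPP against 9.13, 8.66 and 10.2 CPM in KO MPP. Speer4d and Speer2 of the spermatogenesis-associated Speer family, Dynlt1b, a dynein light chain with tandem copies, and Duxf3, a double homeobox factor of the early embryo, are of the same kind. At the Dux array (chr10:58223175-58239720) 5 of 6 eligible regions were lost, and WT library 1 of LT-HSC stood out, with a sum of 25.4 CPM against 14.9 and 13.2 CPM in the other WT and 6.53 to 8.78 CPM in KO libraries.

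Among the 6 strongest lost regions, 1 lay at a listed start, of a predicted gene model (chr7:3898034-3898443), with 22.8, 25.8 and 27.5 CPM in WT MPP and 19.5, 16.8 and 16.4 CPM in KO MPP. In LT-HSC it had 8.81, 11.1 and 11.2 CPM in WT and 7.81, 7.31 and 6.53 CPM in KO. A region in the gene body of Btbd9, a BTB-domain protein (chr17:30518850-30519400), had 55.9, 58.2 and 59.3 CPM in WT MPP and 43.4, 35.9 and 32.6 CPM in KO MPP. In LT-HSC it had 8.81, 9.67 and 9.35 CPM in WT and 6.24, 6.79 and 6.26 CPM in KO, and it was higher in MPP (log2 fold change 2.61, SE 0.06, edgeR adjusted p = 5.02e-26). A region 3.12 kb from Dyrk1a, a dual-specificity kinase gene (chr16:94698642-94699159), had 35.5, 42.0 and 36.7 CPM in WT LT-HSC and 26.2, 22.5 and 19.0 CPM in KO LT-HSC. Its MPP libraries had 21.0, 27.5 and 21.2 CPM in WT and 19.2, 15.2 and 10.4 CPM in KO. A region 164 kb from any gene (chr17:13551715-13552419) had 25.5, 20.2 and 19.2 CPM in WT LT-HSC and 8.89, 10.9 and 9.53 CPM in KO LT-HSC. In MPP 1 WT library stood apart there, with 14.9, 15.3 and 32.6 CPM in WT and 10.6, 7.57 and 9.79 CPM in KO. Only 28 of the 1316 regions reached 10 CPM over the WT libraries.

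Among regions at or above the median level, the deepest losses averaged over the populations were mostly between genes. An intergenic region 280.0 kb from the nearest gene (chr10:50311988-50312999) had 4.94, 7.40 and 6.93 CPM in WT LT-HSC, 2.59, 3.22 and 2.47 CPM in KO LT-HSC, 10.5, 12.4 and 15.8 CPM in WT MPP and 5.87, 4.23 and 3.73 CPM in KO MPP. A region 393 kb from any gene (chr14:58505817-58506273) had the lowest ratio in MPP of all (-1.60), with 5.28, 4.57 and 5.20 CPM in WT and 2.16, 1.41 and 1.38 CPM in KO. At Tox3, an HMG-box factor, a region 20.8 kb outside the gene had 3.53, 3.11 and 4.82 CPM in WT MPP and 2.12, 1.19 and 1.89 CPM in KO MPP, with 0.705 to 0.889 CPM in WT LT-HSC and 0.221 to 0.351 CPM in KO LT-HSC. The other named ones at this depth were near Speer2, Alkbh5 (an RNA demethylase), Sult5a1 (a sulfotransferase) and Zfp791 (a zinc finger protein). At Alkbh5 and Sult5a1 the library KO 3 was the highest KO library in both populations, at 1.46 and 1.84 CPM near Alkbh5 and 0.926 and 1.65 CPM near Sult5a1.

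**Figure D3:**
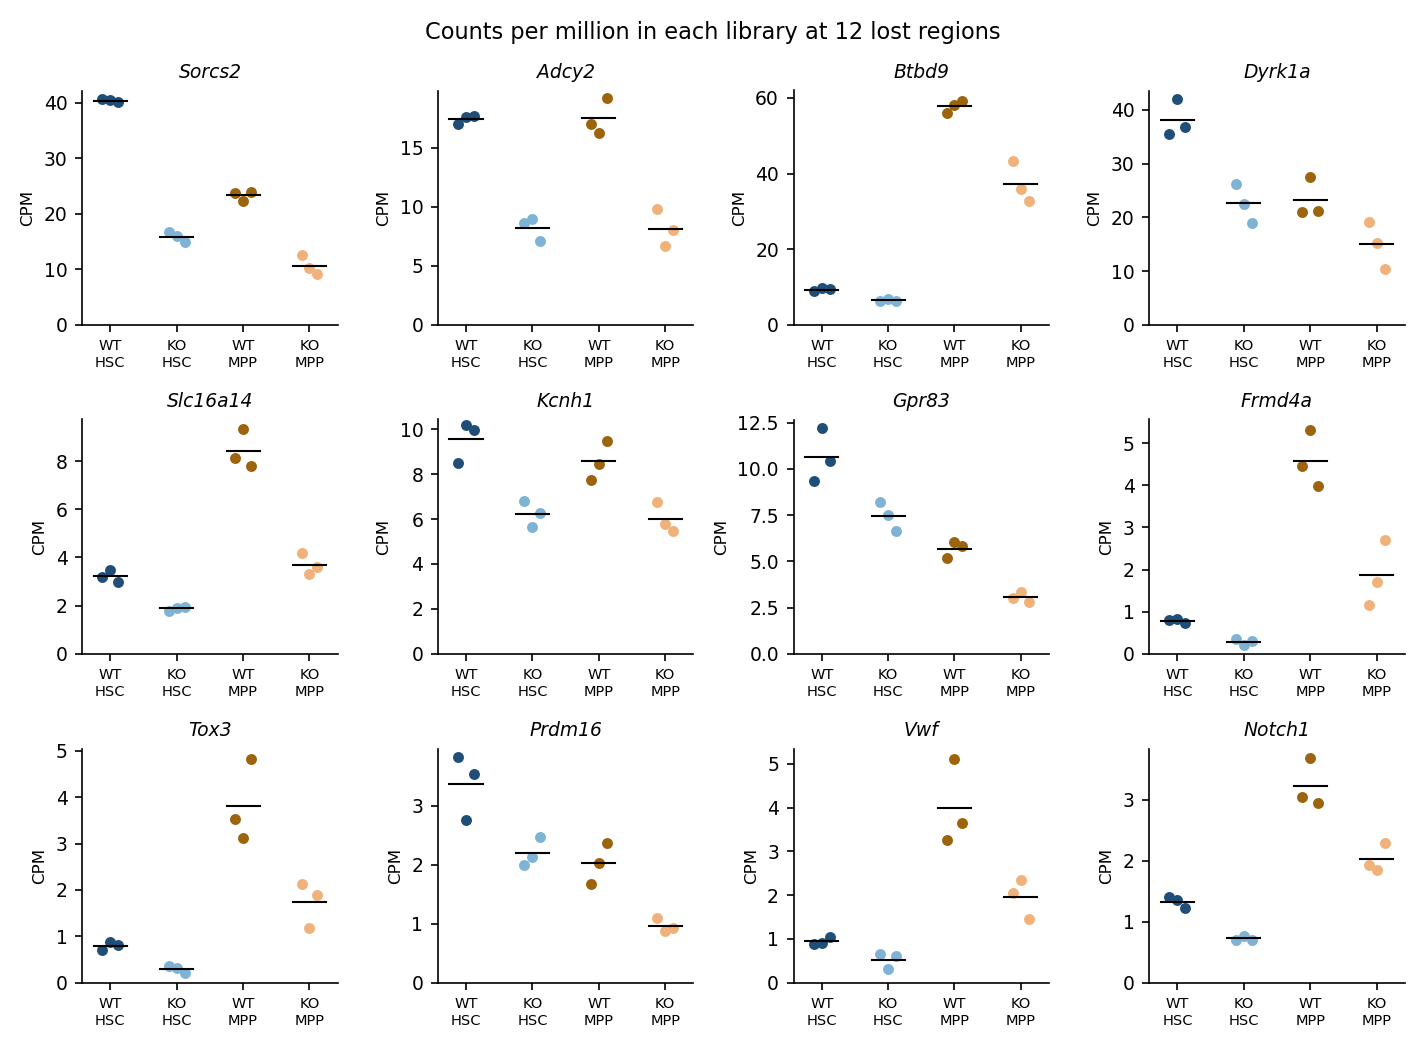
CPM in each library (points) and the group mean (line, n = 3) at 12 lost regions, named by their assigned gene, in WT and KO LT-HSC (blue, written HSC on the axis) and WT and KO MPP (brown). In every panel the KO points lie below the WT points of the same population, as the rule demands, and the order of the populations differs between panels, with Sorcs2 higher in LT-HSC and Btbd9 higher in MPP.

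The lists of blood genes are given beside the 1.05% of all eligible regions that were lost. Of 530 eligible regions at 21 genes of stem cell identity 1 was lost (0.189%), which lay in the gene body of Prdm16, a transcription factor that maintains stem cells (chr4:154493974-154494411). It had 3.82, 2.75 and 3.54 CPM in WT LT-HSC, 2.0, 2.13 and 2.47 CPM in KO LT-HSC, 1.68, 2.02 and 2.36 CPM in WT MPP and 1.10, 0.876 and 0.931 CPM in KO MPP. Of 204 regions at MPP and lymphoid priming genes 1 was lost (0.49%), 36.6 kb outside Notch1, the receptor whose signalling drives T cell fate (chr2:26540414-26540855). It had 1.41, 1.35 and 1.23 CPM in WT LT-HSC, 0.703, 0.770 and 0.706 CPM in KO LT-HSC, 3.05, 3.69 and 2.95 CPM in WT MPP and 1.93, 1.85 and 2.29 CPM in KO MPP. At Vwf, the von Willebrand factor gene of platelets and endothelium, 1 region of the 90 at megakaryocyte and erythroid genes was lost (1.11%, chr6:125678477-125678914), with 3.25, 5.11 and 3.64 CPM in WT MPP and 2.05, 2.34 and 1.46 CPM in KO MPP. A region 2.68 kb from Lmo2, an adaptor of blood transcription factors and a T cell leukaemia oncogene, had 2.53, 2.70 and 2.64 CPM in WT LT-HSC and 1.95, 1.61 and 1.94 CPM in KO LT-HSC. The Notch and T cell leukaemia list held 2 of 225 (0.889%), at Lmo2 and Notch1. T cell genes had 2 of 88 (2.27%), at Bcl11b, which commits cells to the T lineage, and at Cd5, a T cell surface receptor, and natural killer cell genes 1 of 47 (2.13%), at Klrb1c. The lists of myeloid (147 eligible regions), B cell (51), macrophage and endothelial (91), mast cell (35), NuRD and chromatin partner (115), and AP-1 and immediate early genes (275) held 0 lost regions.

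A list of 25 genes of neuronal adhesion and synapse, chosen knowing that several of its genes had lost regions, held 34 of 403 eligible regions (8.44%) at 10 genes, against 1.05% overall. Without Sorcs2 it held 16 of 361 (4.43%), but the rest of the list was chosen with the same knowledge. A share above that of all eligible regions was thus built into the list, and neither share is a test of it. The median log2 ratios over its eligible regions were -0.17 in LT-HSC and -0.22 in MPP. Besides Sorcs2, Adcy2, Frmd4a and Cntnap2, its genes were Csmd1, Nrxn2, Nrxn3, Ptprd, Sdk1 and Sdk2, which encode proteins of the synaptic surface or its receptors. At Csmd1 a gene body region had 8.67, 9.52 and 8.75 CPM in WT LT-HSC and 6.30, 4.34 and 4.63 CPM in KO LT-HSC, and was nearly closed in MPP at 0.526 to 0.618 CPM in WT and 0.239 to 0.316 CPM in KO. At Sdk2 the stronger of 2 lost regions had 10.3, 11 and 7.43 CPM in WT LT-HSC and 7.19, 6.26 and 6.44 CPM in KO LT-HSC. At Ptprd the lost region had 5.46, 5.62 and 4.71 CPM in WT LT-HSC and 4.22, 3.11 and 3.22 CPM in KO LT-HSC.

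At a few regions the loss was carried by some KO libraries. In 14 of the 1316 regions (1.06%, against 0.0893% of eligible regions) the highest and lowest KO library differed 2-fold or more in both populations, computed on CPM + 0.25, a measure chosen after the values were seen. KO 3 was the highest KO library in both populations at 10 of them, KO 2 the lowest at 5 and KO 3 the lowest at 1. Near Zfp791 (chr8:85131152-85131701) WT LT-HSC had 2.82, 3.10 and 3.57 CPM, KO LT-HSC 1 and 2 had 0.243 and 0.385 CPM and KO LT-HSC 3 had 2.51 CPM. In MPP the same numbers repeated the pattern, with 2.40, 2.92 and 2.91 CPM in WT, 0.341 and 0.268 CPM in KO 1 and 2, and 2.32 CPM in KO 3. Regions near Rd3, a retinal protein gene, Ust, a uronyl sulfotransferase gene, Adck5, a kinase-like gene, and in Ppat, the first enzyme of purine synthesis, showed KO 3 at 81.0% to 94.2% of the WT mean in both populations and KO 1 and 2 at 20.3% to 48.4%.

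KO 2 was far below the other KO libraries at 4 regions of chromosome 6. Of the 28 lost regions past 120 Mb of that chromosome, KO 2 was the lowest KO library in both populations at 8. Over all 1316 regions this held at 191 (14.5%). The 4 regions lie in this window and count among the 8, so a high count was partly built in. The share of eligible regions there was not computed. In Grin2b, a subunit of the NMDA receptor (chr6:136011491-136011951), WT LT-HSC had 1.65, 1.95 and 1.95 CPM and KO LT-HSC 1.3, 0.035 and 0.971 CPM, where KO 2 had 1 read. In MPP the WT libraries had 2.18, 1.87 and 2.36 CPM and the KO libraries 1.36, 0.0243 and 1.38 CPM, again 1 read in KO 2. Regions of the natural killer receptor genes Klrb1 and Klrb1c and of A2ml1, a protease inhibitor, also had KO 2 lowest in both populations, at 7.74% to 18.9% of the WT mean, while KO 1 and KO 3 were at 46.6% to 77.0%. In Cdk5rap1, an RNA-modifying enzyme gene on chromosome 2, KO 3 was lowest, at 0.574 CPM in LT-HSC and 1.52 CPM in MPP, with 3.38 and 2.87 CPM in KO LT-HSC 1 and 2. At all 14 regions the highest or the lowest KO library had the same number in LT-HSC and MPP. The share of eligible regions where either holds was not computed, and the 14 were picked by their spread between KO libraries. Over all 1316 regions the highest KO library had the same number in both populations at 38.8%, against 36.5% of eligible regions. What sets the order was not tested.

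**Figure D4:**
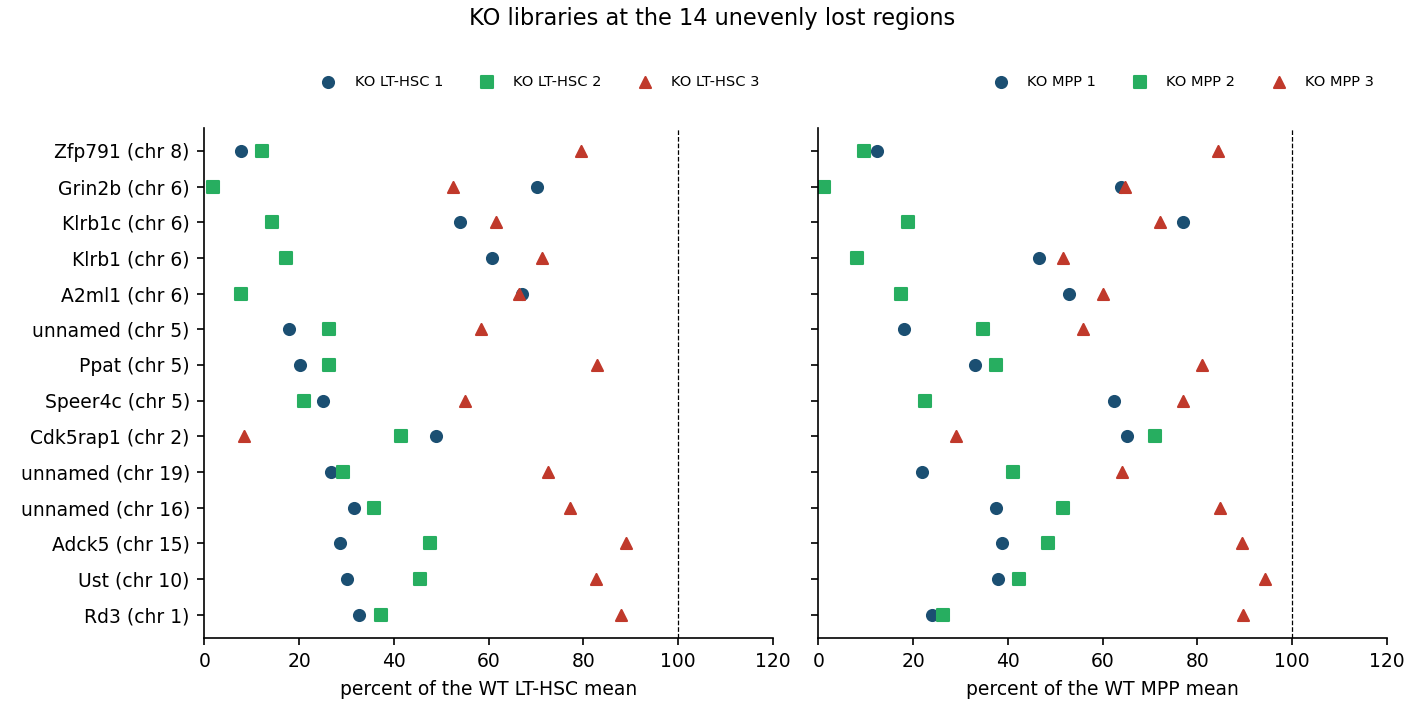
CPM of each KO library as a percent of the WT mean of its population at the 14 unevenly lost regions (LT-HSC left, MPP right); circles, squares and triangles are KO libraries 1, 2 and 3 and the dashed line is the WT mean. KO 3 lies highest in both populations at 10 regions, and KO 2 lies at 1.89% and 1.14% in Grin2b.

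High values in single WT libraries also entered the rule. In 13 of the 1316 regions (0.988%, against 0.067% of eligible regions) WT LT-HSC 1 was at least 1.5 times the next WT LT-HSC library and WT MPP 3 at least 1.3 times the next WT MPP library, a pattern described after the values were seen. The region with the highest mean CPM of the whole table (chr2:98666764-98667167) was no lost region. It had 18700 CPM in WT LT-HSC 1 against 10900 and 10500 CPM in the other WT LT-HSC libraries. WT MPP 3 had 10100 CPM there against 7000 and 9180 CPM. Whether such counts come from open chromatin or from reads with several matches was not tested. The KO libraries were high there too, at 9730 to 13500 CPM in LT-HSC and 8580 to 11000 CPM in MPP. At Mdga2, a synaptic adhesion protein gene, WT LT-HSC had 9.64, 5.22 and 5.19 CPM and KO LT-HSC 3.67, 3.50 and 3.26 CPM, with 3.33, 3.85 and 5.24 CPM in WT MPP and 2.23, 1.75 and 2.39 CPM in KO MPP. At an intergenic region 451 kb from any gene (chr4:64497691-64498225) WT LT-HSC had 16.6, 8.84 and 9.56 CPM and KO LT-HSC 3.05, 4.69 and 3.93 CPM. At both, the other WT libraries lay above all KO libraries of their population, which the rule demands of every lost region. The part of this pattern in the losses was not tested.

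The comparison of MPP with LT-HSC did not enter the rule and was tested. By edgeR, 609 of the 1316 regions (46.3%) were higher in MPP, against 38.8% of all regions tested and 38.3% of eligible ones, and 431 (32.8%) were lower, against 39.1% and 41.7%. Another 276 passed in neither direction. The median log2 fold change of MPP over LT-HSC was 0.208, against -0.0332 over eligible regions, and the range was -4.58 to 4.43. It was 2-fold or more at 324 regions higher in MPP (24.6%, against 14.7% of eligible regions) and 220 lower (16.7%, against 16.5%). These shares are set side by side with no test of their difference, since regions of a locus are not independent.

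The regions with the largest population differences had under 1 CPM in every library of the less open population. Such regions reached the mean of 1 CPM only through the other population, so a large difference follows from the filter for regions this closed in 1 of them. In Siglece, a sialic acid-binding lectin gene of myeloid cells (chr7:43654487-43654914), WT MPP had 10.9, 9.70 and 9.88 CPM and KO MPP 7.27, 7.23 and 6.95 CPM, while WT LT-HSC had 0.574 to 0.989 CPM and KO LT-HSC 0.210 to 0.529 CPM (log2 fold change 4.16, SE 0.13). In Ppargc1a, a coactivator of mitochondrial biogenesis (chr5:51494490-51494892), WT MPP had 7.93, 9.21 and 6.38 CPM and KO MPP 5.30, 5.23 and 4.95 CPM, and LT-HSC had 0.300 to 0.488 CPM in WT and 0.132 to 0.297 CPM in KO (log2 fold change 4.43, SE 0.16). The reverse was seen in Fsip1, a sperm flagellum protein gene (chr2:118167735-118168206), with 9.75, 9.12 and 9.38 CPM in WT LT-HSC, 6.38, 6.02 and 4.94 CPM in KO LT-HSC and 0.5 to 0.597 CPM in WT MPP (log2 fold change -4.17, SE 0.12). Regions near Pappa2, a protease gene, and Cyyr1 were lower in MPP by 4.42 and 4.58 on the log2 scale, and the one near Shq1, an assembly factor of small nucleolar ribonucleoproteins, was higher by 3.95. At such regions the ratio in the closed population rests on few reads: KO MPP 1 had 0 CPM near Cyyr1 and KO LT-HSC 2 had 0 CPM near Shq1.

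Position was counted separately for regions higher and lower in MPP. Listed starts within 1 kb were 9.98% of the 431 regions lower in MPP. They were 1.97% of the 609 higher in MPP and 1.81% of the 276 others. The intergenic shares were 40.8%, 53.2% and 50.7%. Over all eligible regions 12.9% lay at listed starts and 36.8% were intergenic. The shares of eligible regions by these classes were not computed, so the differences are not particular to lost regions by these values. The median log2 ratio of KO over WT was -0.72 in LT-HSC and -0.65 in MPP for regions higher in MPP, and -0.63 and -0.76 for regions lower in MPP. In each class the median was the more negative in the population where the region was less open. The rule cut both ratios, and ratios that rest on fewer reads vary more. This order can therefore come from the choice alone, and it was not tested.

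**Figure D5:**
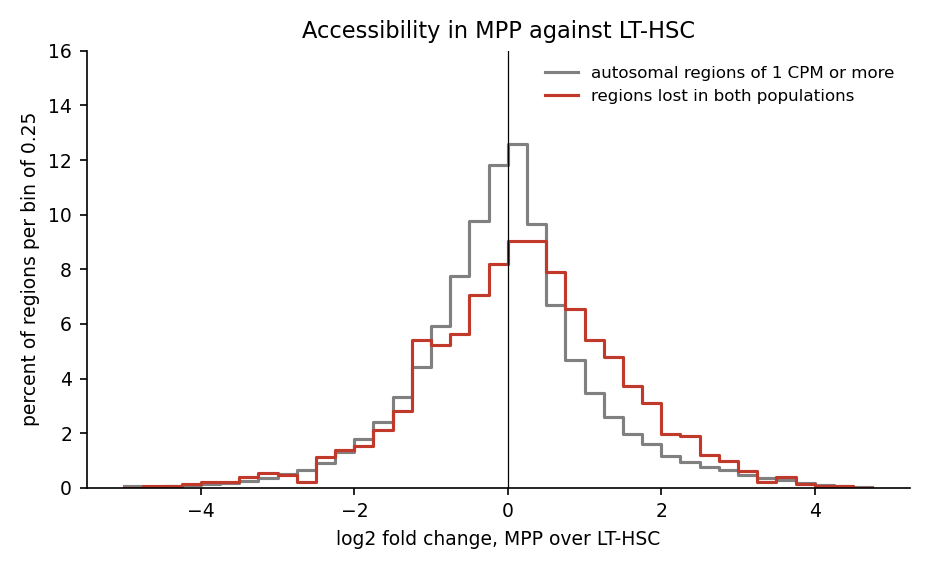
Share of regions (percent per bin of 0.25) by log2 fold change of MPP over LT-HSC, for the 1316 lost regions (red) and all 125457 eligible regions (grey). The red line lies above the grey one from 0.5 to 3, and the medians are 0.208 and -0.0332.

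As a check of the labels, the strongest regions at gene ends of Mpo, Cd48, Satb1, Cd34 and Flt3 were higher in MPP (log2 fold changes 2.49, 0.85, 0.90, 0.57 and 0.66), and those of Slamf1, Fgd5 and Mecom were lower (-0.40, -0.37 and -0.23), while Hlf was slightly higher (0.13) and Procr passed in neither direction. Markers of other cell types ranged from 0.471 CPM at Cd79a to 42.9 CPM at Lck in WT LT-HSC, none was at 0 where a region was found, and no marker region was among the lost ones. At Phf6 itself the strongest region, at a gene end on chromosome X, had 26 to 27.9 CPM in WT LT-HSC and 26.3 to 28.3 CPM in KO LT-HSC. Nothing in the sources used here places this region in the deleted part, so it does not check the deletion. Libraries held 22665988 to 48547234 counts in regions. The median lost region had between 27 reads (KO LT-HSC 3) and 106 reads (WT MPP 2) in a library.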

How the data were processed

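The deposited values were raw counts of reads per region for 12 libraries in 1 union table, not normalized by the authors. Per the submitters' processing notes, the build was GRCm38 and the tools were Bowtie2, cutadapt, featureCounts, MACS2 2.1.1 and DESeq2 1.22.1. Settings, duplicate removal and the handling of reads with several matches are not stated in the sources used here, and reads outside regions are not in the table. CPM were counts over column totals. Regions were placed against RefSeq protein-coding genes (GRCm38.p6). Listed starts cover 17492 of 21900 genes and none on chromosome 18, so a share at starts is a lower limit. Each region took the name of an overlapping gene, or else of the nearest within 100 kb, which does not show that it acts on that gene. Populations were compared with edgeR 4.0.16 (R 4.3.3) in a fit of all 12 libraries with 1 mean per group, TMM and filterByExpr, which left out 1889 regions. All 1316 regions passed. The contrast was the mean of WT and KO MPP minus that of LT-HSC, a 2-sided quasi-likelihood F test with Benjamini-Hochberg adjustment over 186373 regions and a threshold of 0.05, checked on simulated data. The biological coefficient of variation was 8.18%. No 2 libraries agreed within sampling noise. Precision covers the spread of 3 libraries per group and counting error.

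The regions and the 13 gene lists (173 genes) were chosen with earlier results of these data known. Named regions were the 12 deepest losses above the median level, the 6 strongest, the strongest of each of 10 loci, up to 8 at gene ends, up to 2 per list, 3 on each side of the threshold and 3 per direction between populations. Promoters and further regions of genes with several losses were named after their values were seen. Predicted gene models are given by position. Peak sequences and motifs of regions away from promoters were not analysed here. Alternatives were TMM, RLE and total-count scaling, other thresholds and distances, no filter, limma-voom 3.58.1, DESeq2 1.42.0, WT or KO libraries alone, the replicate number as a block, and each library left out.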

Additional observations from a re-analysis of the deposited data

How the results depend on the processing

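The number of lost regions depended on the rule: it was 882 with TMM-scaled CPM, 254 with a log2 ratio of -0.75 or less, 50 with -1 or less, 2452 with a mean of 0.5 CPM or more, 521 with 2 CPM or more and 1343 over all chromosomes. All 882 regions under TMM scaling were among the 1316. Leaving out a library gave 1198 to 2029, the latter without KO number 1 in both populations, where 1150 of the 1316 were kept. The median log2 ratio was -0.575 in LT-HSC and -0.591 in MPP when computed from median CPM with a pseudocount of 0.25, and -0.738 to -0.668 and -0.719 to -0.647 with a library left out. The share at gene ends was 5.32% within 0.5 kb and 9.73% within 2 kb, and the share near another lost region 18.5% within 50 kb and 76.6% within 1 Mb. Regions higher and lower in MPP numbered 592 to 611 and 408 to 436 with a library left out, 531 and 376 from KO libraries alone, and 591 and 406 by DESeq2. Same-numbered LT-HSC and MPP libraries of a genotype correlated at 0.0958 to 0.2018 over 125457 regions and other pairs at -0.14 to -0.0124. These are correlations of deviations from the group mean, not of the counts themselves. Each library correlated best with its own number. The deviations of a group cancel, so values above 0 for the same numbers push the others below 0, which is no separate result. The main fit did not take the numbers as pairs, and whether they share a mouse is not stated. Libraries with the same number may therefore not be independent between the populations. With the replicate block 618 were higher and 435 lower. Among 41 named regions called between populations, 13 of the results over 21 settings missed the threshold, at 6 regions, and 0 reversed. Regions near 1 CPM rest on few reads, so their single ratios are imprecise.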
